A study of Mus musculus with 12 samples.

Results

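The genes described here are 38 markers of white blood cells, read in the prostate of male mice descended from females given chlordecone during pregnancy. They were taken as the rows whose gene name was among 39 marker names, out of 28075 genes in either of 2 count tables, and were kept in 5 lineages: 5 pan-leukocyte genes, 6 of T and natural killer (NK) cells, 5 of B and plasma cells, 20 of myeloid cells and 2 of neutrophils. The 39th name, Igj, is the older symbol of Jchain and had no row of its own. The F1 table gave 35 of the markers among its 19091 genes, and Cd3e, Cd4 and Ighm were not analysed in F1. The F3 table gave all 38 among its 26023 genes.

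Chlordecone, also called kepone, is an organochlorine insecticide, and the study asked what it does to the prostate across generations. The F1 chlordecone group was 3 libraries of males whose mothers (F0) received 100 µg/kg/day on embryonic days E6.5 to E15.5, and the F1 control group was 2 libraries, since a control listed as number 3 was not analysed here. The F3 chlordecone group was 3 libraries of males bred from the exposed line to generation 3, and the F3 control group was 3 libraries. All were poly-A RNA of whole prostate. The labels give no strain, age, lobe or vehicle, and do not say whether the libraries of a group came from separate animals, so each p-value measures only the spread between these libraries.

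White blood cells all carry CD45, and each lineage adds its own surface receptors: T cells the CD3 chains around their antigen receptor, B cells the CD79 chains around membrane immunoglobulin, macrophages scavenger and complement molecules, and neutrophils the calcium-binding pair that makes up calprotectin. The healthy prostate holds scattered macrophages and T lymphocytes in its stroma and between its epithelial cells, and inflammation of the gland adds to them. In bulk RNA, fewer cells of a type and less marker RNA per cell cannot be told apart.

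Levels are given in CPM, counts scaled by library size, with library sizes corrected by trimmed mean of M values (TMM). Total counts ran from 17858215 to 28061760 in the F1 chlordecone libraries and from 17228539 to 18740109 in the F1 controls, and from 86552953 to 112491139 in the F3 chlordecone libraries and from 71672418 to 114762135 in the F3 controls. The tables were made differently (the F1 one held 1 immunoglobulin or T cell receptor segment and 0 mitochondrial genes, the F3 one 173 segments and 27 mitochondrial genes), so a level in F1 set beside a level in F3 is a description only. The prostate's own luminal markers were abundant in every library, with summed levels of 40760 to 90030 CPM after chlordecone and 80780 to 95820 CPM in controls in F1, and of 89890 to 99430 CPM and 95210 to 107700 CPM in F3. Markers of neighbouring organs differed sharply between the F1 libraries: 6 seminal vesicle genes summed to 186900, 429700 and 528800 CPM after chlordecone against 118200 and 120800 CPM in controls, while in F3 they summed to 9.91 to 16.4 CPM and 10.5 to 69.6 CPM. Fat markers were highest in F1 chlordecone 2 (292 CPM, against 69.0 and 86.0 CPM in the other chlordecone libraries and 21.8 and 28.7 CPM in controls) and in F3 control 2 (234 CPM, with 6.85 to 80.9 CPM in the chlordecone libraries and 10.3 and 43.6 CPM in the other controls). The F1 median log2 fold change was 1.06 over 7 smooth muscle markers, 2.06 over 6 of fat and 3.01 over 5 of urothelium. It was -0.525 over 8 luminal markers, 7 of them below 0, and -0.463 over 7 endothelial markers.

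The leukocyte markers leaned upward after chlordecone in F1 and downward in F3, and no marker passed the threshold in either generation. In F1, 26 of the 32 markers with enough counts to test had a log2 fold change above 0 and 6 below 0, with a median of 1.04, against 0.03 for all 17804 genes tested, of which 51.4% were above 0 and 48.6% below. None of the 32 reached an adjusted p under 0.05 in edgeR's quasi-likelihood test with Benjamini-Hochberg adjustment, as did 0.0281% of all genes. At an unadjusted p under 0.05, 7 markers were higher and 0 lower, against 7.93% and 3.6% of all genes. Fcer1g, among the 7, was at 0 counts in both controls and so entered the test through its chlordecone libraries alone. Itgam, also among the 7, had 8 and 19 counts in the controls, which alone would not have passed the filter. The other tool run, DESeq2, called C1qc and Itgam, when it called 4.12% of all genes. With library totals alone in place of TMM, the median over all F1 genes moved by -0.27 on the log2 scale, and the mean CPM of Coro1a, C1qb, Csf1r and Mrc1 was then lower after chlordecone. In F3, 8 of 36 tested markers had a log2 fold change above 0 and 28 below 0, with a median of -0.28 against -0.01 for all 16766 genes, of which 48.8% were above 0 and 51.2% below. Again none was called, against 0.0596% of all genes; Itgam was higher and Cd52, C1qa, C1qb, Lyz1 and Aif1 were lower at an unadjusted p under 0.05 (4.97% and 5.64% of all genes), and DESeq2 called 0 markers and 1.49% of all genes.

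The median shift was not the same in each lineage, but no test compared the lineages. In F1 the median log2 fold change was 0.80 for the 5 pan-leukocyte genes, -0.09 for 4 T and NK genes, 1.79 for 2 tested B and plasma genes, 1.23 for the 20 myeloid genes and 1.09 for S100a8, the tested neutrophil gene. In F3 it was -0.18 for the pan-leukocyte genes, -0.18 for 6 T and NK genes, 0.13 for 5 B and plasma genes and -0.56 for the myeloid genes, while neither neutrophil gene had enough counts to test. Myeloid genes above and below 0 numbered 16 and 4 in F1 and 3 and 17 in F3. Single libraries carried much of each pattern. The F1 pan-leukocyte median was 0.33 without chlordecone 3, and the S100a8 value was 0.11 without control 2 and 0.43 without chlordecone 3. F1 chlordecone 3 was the highest of the 5 libraries for 23 of the 32 markers (71.9%), although it was highest for 16.1% of all genes. Without it the F1 median was 0.39, over 29 tested markers in place of 32. F3 chlordecone 2 was the lowest of the 6 libraries for 24 of the 36 markers (66.7%, against 14.4% of all genes), and F3 control 2 the highest for 15 (41.7%, against 25.3%). Without F3 chlordecone 3, which was highest for 11 markers, the F3 median was -0.85, over 38 tested markers in place of 36.

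**Figure D1:**
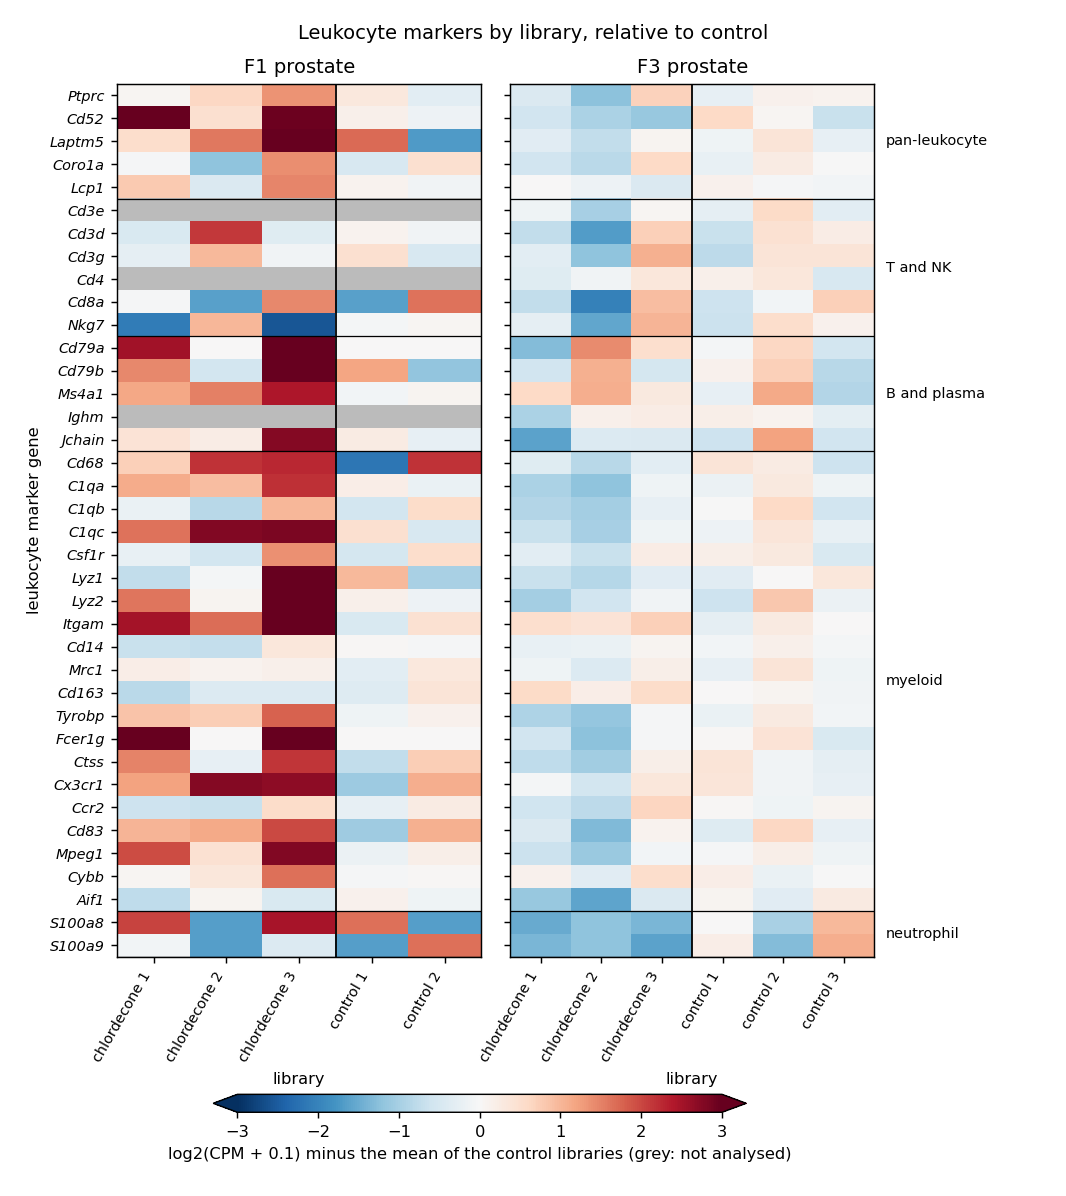
Each cell is a marker's log2(CPM + 0.1) in a library (x axis, chlordecone libraries left of the controls in each panel) minus the mean of that generation's control libraries, with genes down the y axis by lineage, red above and blue below the controls, colours capped at 3 and grey where a gene was not analysed. F1 chlordecone 3 is the reddest column, highest for 23 of 32 tested markers, and F3 chlordecone 2 the bluest, lowest for 24 of 36.

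Setting the F3 difference against the F1 difference in a single fit, 1 of 35 markers passed the threshold, against 0.718% of the 16980 genes tested (0.465% lower). This was C1qc, a chain of the complement recognition protein, whose chlordecone difference was lower in F3 than in F1 by a log2 value of -3.11 (SE 0.65, edgeR quasi-likelihood test, Benjamini-Hochberg adjusted p = 0.0474). The single fit estimates a shared spread for each gene over all groups, so its p-values do not measure the F1 spread alone. In the fit of F1 by itself the SE of C1qc was 0.77. DESeq2 called 5 markers (C1qa, C1qc, Cd52, Fcer1g and Mpeg1) and 6.93% of all genes. The edgeR call of C1qc was narrow: the adjusted p was 0.0506 with DESeq2 size factors and 0.0596 with library totals alone, and it lay between 0.0630 and 0.148 on leaving out any of the F1 controls, F1 chlordecone 3 or any F3 library. Without F1 chlordecone 1 or F1 chlordecone 2 it was 0.0238 and 0.0131. The difference between generations was below 0 for 30 markers and above 0 for 5, with a median of -1.36 against -0.04 for all genes, of which 51.7% were below 0 and 48.3% above. At an unadjusted p under 0.05 it was lower for 10 markers (Cd52, Jchain, C1qa, C1qc, Lyz2, Itgam, Tyrobp, Fcer1g, Cx3cr1 and Mpeg1) and higher for 0, against 9.91% and 7.04% of all genes. Fcer1g is counted there, and among the DESeq2 calls, against F1 controls at 0 counts. Without F1 chlordecone 2, 8 markers passed the threshold (C1qa, C1qc, Cd52, Fcer1g, Itgam, Lcp1, Lyz2 and Mpeg1, all lower in F3, Fcer1g again against F1 controls at 0), in a fit that called 13.8% of all genes.

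**Figure D2:**
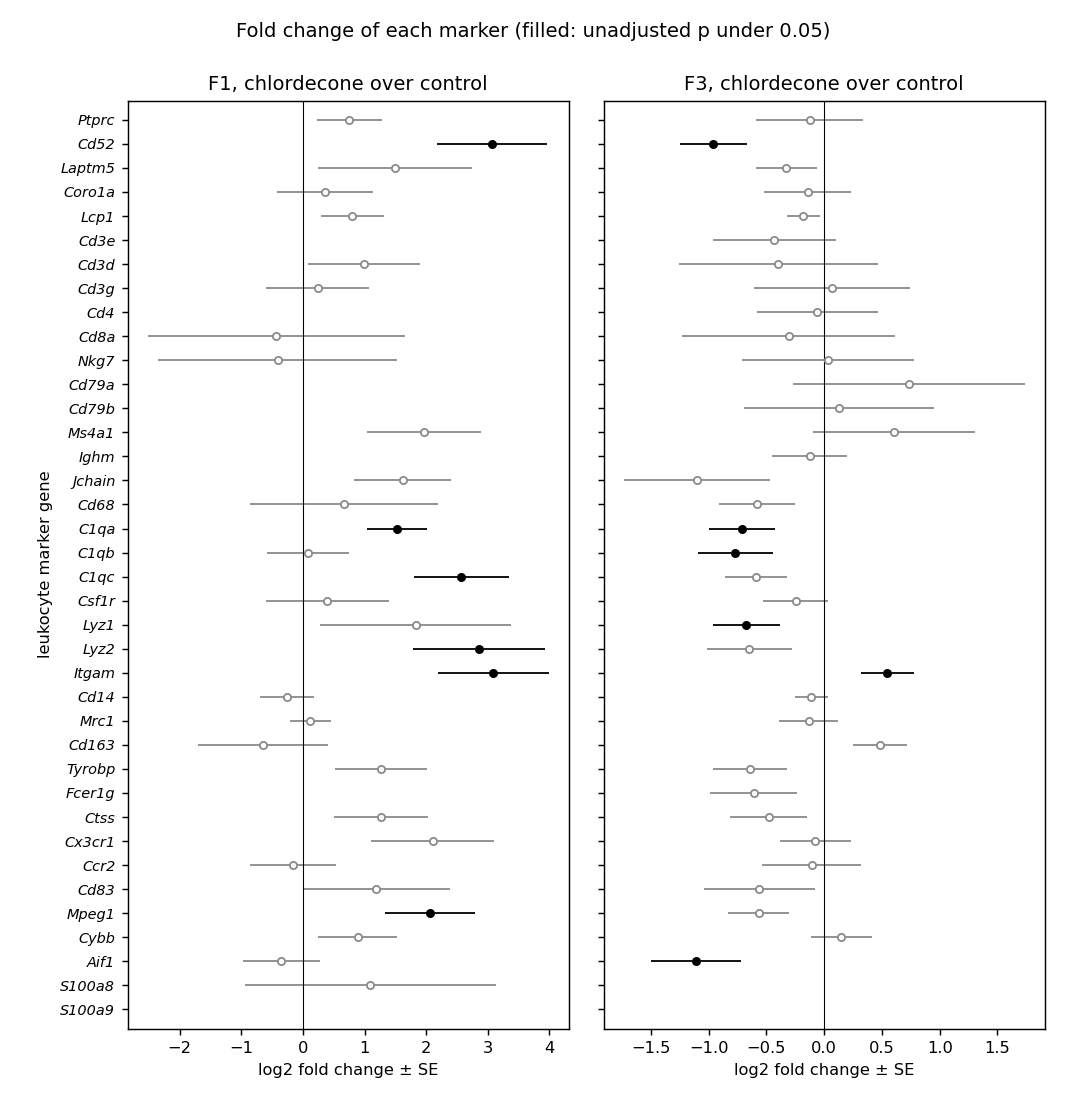
Points are each marker's log2 fold change, chlordecone over control, from the edgeR fit in F1 (left) and F3 (right), with bars of 1 SE; filled points had an unadjusted p under 0.05, and markers with too few counts have no point. Fcer1g is left out of F1 because both controls were at 0 counts; the remaining points lie mostly right of 0 in F1 and left of 0 in F3, and the x axes differ.

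The pan-leukocyte genes mark nearly every white blood cell. Ptprc encodes CD45, the surface phosphatase of all nucleated blood cells, and had 4.55, 6.71 and 11.3 CPM in the chlordecone libraries against 5.45 and 3.47 CPM in the controls in F1. In F3 it had 1.53, 0.837 and 3.46 CPM in the chlordecone libraries against 1.78, 2.32 and 2.27 CPM in the controls. The groups overlapped in both generations, with F1 chlordecone 3 the highest F1 library, F3 chlordecone 3 the highest F3 library and F3 chlordecone 2 the lowest. Its F1 log2 fold change of 0.75 (SE 0.53, edgeR quasi-likelihood test, Benjamini-Hochberg adjusted p = 0.644) and its F3 log2 fold change of -0.13 (SE 0.46, edgeR quasi-likelihood test, Benjamini-Hochberg adjusted p = 0.924) did not pass the threshold, and the F3 value was 0.02 without chlordecone 1 and 0.23 without chlordecone 2.

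Laptm5, a lysosomal membrane protein of blood cells, had 1.03, 2.24 and 7.73 CPM in the chlordecone libraries against 2.46 and 0.141 CPM in the controls in F1. Its 2 F1 controls lay apart, at 47 and 3 counts, and spanned the levels of chlordecone 1 and 2. Coro1a, an actin-binding coronin of leukocytes, had 3.80, 1.64 and 10.4 CPM after chlordecone, with 2.78 and 5.44 CPM in the controls, and its F1 groups overlapped too. In F3, Laptm5 had 5.20, 3.94 and 6.95 CPM in the chlordecone libraries against 5.99, 8.69 and 5.54 CPM in the controls, and Coro1a had 2.56, 2.18 and 5.89 CPM in the chlordecone libraries against 3.32, 4.597 and 3.83 CPM in the controls. Both overlapped between the F3 groups, and both were lowest in chlordecone 2. Exons of Coro1a overlap Bola2 on the opposite strand; the counting's strand setting is not given in the sources used here, and reads there could belong to either gene.

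Lcp1 encodes L-plastin, an actin-bundling protein of leukocytes that some epithelial and tumour cells also make, and it kept a different proportion to CD45 in each table. In F1 it had 20.6, 8.72 and 32.8 CPM in the chlordecone libraries against 12.8 and 11.0 CPM in the controls, with chlordecone 2 below both controls and the other chlordecone libraries above them. In F3 it had 155, 139 and 113 CPM in the chlordecone libraries against 167, 149.7 and 145 CPM in the controls, a narrow range in which the groups overlapped. Its F1 log2 fold change of 0.80 (SE 0.51, edgeR quasi-likelihood test, Benjamini-Hochberg adjusted p = 0.608) and its F3 log2 fold change of -0.18 (SE 0.14, edgeR quasi-likelihood test, Benjamini-Hochberg adjusted p = 0.637) did not pass the threshold. Lcp1 counts were 1.30 to 4.52 times those of Ptprc within F1 chlordecone libraries and 2.35 and 3.18 times in F1 controls, against 32.6 to 166 times in F3 chlordecone libraries and 63.8 to 94.0 times in F3 controls. Per kilobase of exon, Lcp1 averaged 14.3 CPM after chlordecone and 16.2 CPM in controls in F3, where Ptprc averaged 0.106 and 0.116 CPM. These lengths merge all annotated exons, 9504 bases for Lcp1 and 18313 for Ptprc, so the contrast per kilobase depends in part on the annotation. RefSeq gives Lcp1 a pair of transcription starts on the plus strand, and the 300 bases around each (250 before the start and 50 after it, GRCm38.p6, chr14:75130873-75131172 and chr14:75136175-75136474) are shown because the proportion of Lcp1 to the other pan-leukocyte genes differed between the tables. The letters AGAACA or TGTTCT, the half-site bound by androgen and glucocorticoid receptors, were searched on both strands and are in capitals; they occur 1 time in the window of start 2, 0 times in that of start 1, and in 19.0% of all 32851 promoters of the RefSeq table. The counts do not separate transcripts of these starts.
Lcp1 start 1: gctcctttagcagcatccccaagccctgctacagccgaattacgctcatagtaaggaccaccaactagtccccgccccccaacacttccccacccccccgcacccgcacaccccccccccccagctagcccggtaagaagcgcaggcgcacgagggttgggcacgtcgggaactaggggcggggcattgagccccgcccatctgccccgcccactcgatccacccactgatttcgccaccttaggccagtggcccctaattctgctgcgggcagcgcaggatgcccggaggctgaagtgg
Lcp1 start 2: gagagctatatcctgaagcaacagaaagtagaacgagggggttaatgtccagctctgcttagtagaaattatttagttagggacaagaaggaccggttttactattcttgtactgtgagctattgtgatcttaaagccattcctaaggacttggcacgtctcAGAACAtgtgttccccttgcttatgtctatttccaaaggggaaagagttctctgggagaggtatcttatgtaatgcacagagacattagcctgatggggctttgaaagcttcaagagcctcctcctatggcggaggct

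Cd52, a small glycoprotein of lymphocytes and monocytes, is also made in large amounts by the epithelium of the epididymis and vas deferens, and it was the most abundant of the markers per kilobase of exon in both tables. In F1 it had 1292, 112 and 611 CPM in the chlordecone libraries against 88.9 and 71.6 CPM in the controls, or a mean of 672 ± 592 CPM in chlordecone prostates (SD, n = 3) and 80.2 ± 12.2 CPM in control prostates (SD, n = 2). All 3 chlordecone libraries were above both controls, and chlordecone 1 was far above the rest. The log2 fold change of 3.06 (SE 0.89, edgeR quasi-likelihood test, Benjamini-Hochberg adjusted p = 0.265) did not pass the threshold. Without chlordecone 1 it was 2.16, and with chlordecone 2 as the only chlordecone library, an alternative chosen after seeing the data, it was 0.48. Some markers of vas deferens and epididymis were high in the same libraries: Akr1b7 had 29060, 33.2 and 8741 CPM in the chlordecone libraries against 15.3 and 14.8 CPM in the controls, and Crisp1 had 15220, 68.5 and 5188 CPM in the chlordecone libraries against 8.70 and 10.1 CPM in the controls. Defb42, an epididymal defensin, had 115, 52.7 and 399.5 CPM in the chlordecone libraries against 0.314 and 0.844 CPM in the controls. Spinkl, another gene of that list, did not share this pattern, with 2181, 11900 and 13.8 CPM in the chlordecone libraries against 6788 and 5879 CPM in the controls. Its groups overlapped. Of the 5 tested genes of that list, 3 were highest in chlordecone 1 and 1 each in chlordecone 2 and 3, and their part in the Cd52 result was not tested. Ptprc, in contrast, was lower in chlordecone 1 than in control 1, so that Cd52 counts were 284 times those of Ptprc in F1 chlordecone 1 and 16.7 and 54.2 times in chlordecone 2 and 3, against 16.3 and 20.7 times in the controls.

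In F3, Crisp1 was at or near 0 in every library, and Akr1b7 and Defb42 had log2 fold changes of 1.53 and 0.75. The vas deferens and epididymis list summed to 1.97, 0.976 and 1.11 CPM after chlordecone and 1.32, 0.325 and 0.565 CPM in controls. Its part in the F3 values of Cd52 was not tested. Cd52 leaned lower after chlordecone in F3, the other way from F1. It had 104, 81.0 and 70.9 CPM in the chlordecone libraries against 235, 164 and 99.0 CPM in the controls, or a mean of 85.4 ± 17.1 CPM in chlordecone prostates (SD, n = 3) and 166 ± 68.2 CPM in control prostates (SD, n = 3). Chlordecone 1 lay just above control 3, so the groups overlapped, and the log2 fold change of -0.96 (SE 0.29, edgeR quasi-likelihood test, Benjamini-Hochberg adjusted p = 0.396) did not pass the threshold. The difference between generations was -3.94 on the log2 scale (SE 0.92, edgeR quasi-likelihood test, Benjamini-Hochberg adjusted p = 0.0638). An exon of Cd52 overlaps Crybg2 on the opposite strand; in F1, Crybg2 averaged 0.681 CPM per kilobase in both groups, and Cd52 averaged 566 CPM per kilobase after chlordecone and 67.6 in controls.

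**Figure D3:**
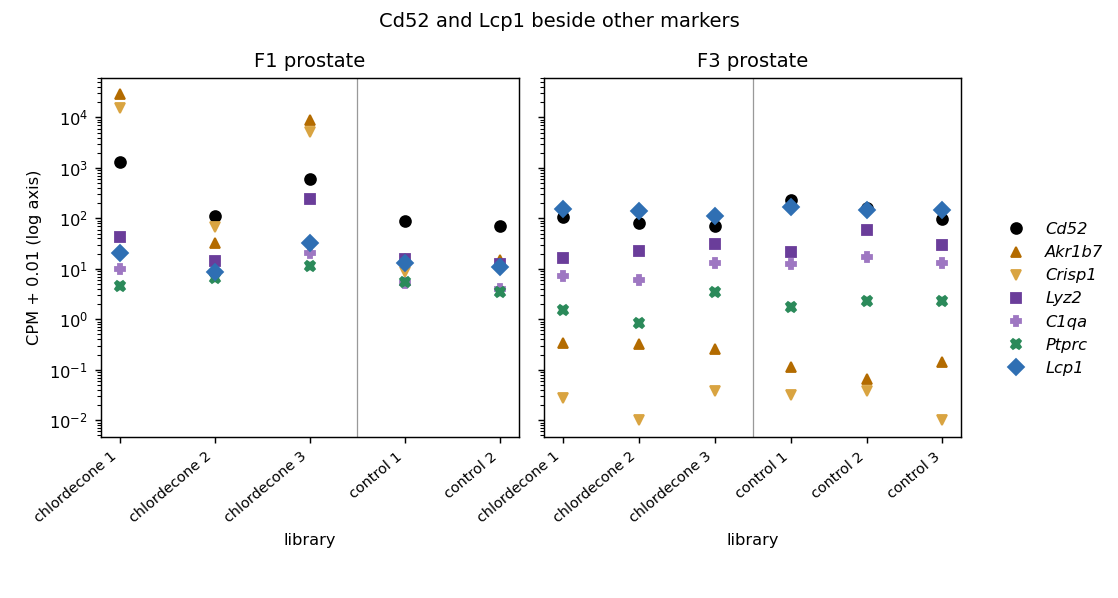
Symbols give CPM + 0.01 (y axis, log scale) of Cd52, of Akr1b7 and Crisp1 (vas deferens and epididymis) and of Lyz2, C1qa, Ptprc and Lcp1 in each library (x axis), with chlordecone libraries left of the grey line and controls right of it. In F1, Cd52, Akr1b7 and Crisp1 are highest in chlordecone 1 and 3, whereas Lyz2 and C1qa are highest in chlordecone 3; in F3, Crisp1 is at or near 0 in every library and Lcp1 spans a narrow range (113 to 167 CPM).

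The T and NK markers were low and split between libraries in both generations, with no shared direction. In F1 their summed level was 3.09, 14.3 and 3.87 CPM after chlordecone and 5.08 and 4.50 CPM in controls, and in F3 it was 1.54, 0.593 and 4.31 CPM after chlordecone and 1.38, 3.06 and 2.71 CPM in controls. F1 chlordecone 2 and F3 chlordecone 3 stood above the others of their tables, and F3 chlordecone 2 below. The median log2 fold change took either sign as libraries were left out. In F1 it was -0.37 without chlordecone 2 and above 0, at most 0.41, without any of the others. The 0.41, without chlordecone 3, was over 3 genes in place of 4. In F3 it was 0.08, 0.18 and 0.10 without chlordecone 1, chlordecone 2 and control 2, and -1.02 without chlordecone 3.

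Cd3d, a chain of the T cell receptor complex, had 1.58, 10.1 and 1.70 CPM in the chlordecone libraries against 2.41 and 2.06 CPM in the controls in F1. Only chlordecone 2 was high, and the other chlordecone libraries lay below both controls. Cd3g, its partner chain, had 1.27, 3.11 and 1.43 CPM after chlordecone, with 2.20 and 1.08 CPM in the controls, again highest in chlordecone 2. Cd8a, the co-receptor of cytotoxic T cells, was at 0 counts in F1 chlordecone 2 and control 1 and had 5 to 18 counts in the others, and Nkg7, a granule protein of cytotoxic T and NK cells, had 1, 20 and 0 counts after chlordecone and 9 and 11 counts in controls. Chlordecone 2 was thus highest for Cd3d, Cd3g and Nkg7 but had no Cd8a read, which allows up to 0.164 CPM (3 counts). The same library was the highest of the F1 table for all 6 fat markers tested, and their part in the T cell values was not tested. The gap in Cd3d rested on 185 counts in chlordecone 2, against 37 to 46 counts in each of the other F1 libraries.

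In F3 all 6 genes were above 0 in every library. Cd3e had 0.278, 0.105 and 0.330 CPM in the chlordecone libraries against 0.243, 0.509 and 0.232 CPM in the controls, Cd3d had 0.135, 0.0232 and 0.547 CPM after chlordecone, with 0.148, 0.439 and 0.357 CPM in the controls, and Cd3g had 0.431, 0.186 and 1.28 CPM in the chlordecone libraries against 0.286, 0.764 and 0.772 CPM in the controls. Each was lowest in chlordecone 2, at 9, 2 and 16 counts, and Cd3d and Cd3g were highest in chlordecone 3. Cd8a had 0.198, 0.0232 and 0.840 CPM in the chlordecone libraries against 0.222, 0.368 and 0.722 CPM in the controls, and Nkg7 had 0.377, 0.0930 and 1.06 CPM after chlordecone, with 0.264, 0.721 and 0.523 CPM in the controls. Both followed the same order of chlordecone libraries as the CD3 chains, so the chlordecone values enclosed the control values. Cd4, the co-receptor of helper T cells that macrophages also carry, had 0.117, 0.163 and 0.255 CPM in the chlordecone libraries against 0.211, 0.255 and 0.0996 CPM in the controls, a smaller range in which chlordecone 1 and not chlordecone 2 was the lowest of its group. Across the 6 genes, 5 were lowest in chlordecone 2 and 5 highest in chlordecone 3. Endothelial markers summed to 55.9, 56.7 and 89.3 CPM in the F3 chlordecone libraries and 59.9, 76.6 and 61.4 CPM in the controls, so chlordecone 3 was also the highest for vessel genes; whether this bears on its T cell values was not tested.

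The wider T and NK list of 24 further genes gave 0 calls in either generation in edgeR, with 9 of 14 tested genes above 0 in F1 (median 0.53) and 11 of 20 in F3 (median 0.17). Over all the wider leukocyte lists, edgeR called 0 of 58 tested genes in F1 and 0 of 74 in F3; at an unadjusted p under 0.05, 5 were higher and 3 lower in F1 (7.93% and 3.6% of all genes were) and 0 higher and 4 lower in F3 (4.97% and 5.64% of all genes). DESeq2 called 4 of 56 in F1, Kit and Ltf higher and Bank1 and Mmp8 lower (4.12% of all genes), and in F3 it called 1 of 73, Ccl8, lower (1.49% of all genes). Ltf and Mmp8 each entered the F1 test through the higher group alone. Foxp3, the factor of regulatory T cells and the most abundant F1 gene of the wider T and NK list, had 4.91, 2.78 and 4.88 CPM in the chlordecone libraries against 3.41 and 2.67 CPM in the controls, and the groups overlapped. Lck, the kinase that starts T cell receptor signalling, had 1.27, 1.96 and 1.56 CPM in the chlordecone libraries against 2.52 and 3.19 CPM in the controls in F1. In F3 Lck had 5.73, 6.09 and 6.29 CPM in the chlordecone libraries against 4.62, 5.21 and 3.87 CPM in the controls. The F1 chlordecone libraries were all below the F1 controls and the F3 chlordecone libraries all above the F3 controls. Lck did not follow the CD3 chains: in F3 chlordecone 2, where it had 6.09 CPM, Cd3e, Cd3d and Cd3g had 0.105, 0.0232 and 0.186 CPM. Which cells its counts came from was not tested. The difference between generations was 1.30 on the log2 scale (SE 0.47, edgeR quasi-likelihood test, Benjamini-Hochberg adjusted p = 0.177) and did not pass the threshold.

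B and plasma cell markers were highest in a single library in F1 and mixed in F3. Their summed level was 9.19, 7.80 and 41.8 CPM in F1 chlordecone libraries and 6.97 and 4.87 CPM in F1 controls, most of it Jchain. In F3 it was 3.16, 7.73 and 6.92 CPM after chlordecone and 6.59, 8.77 and 4.72 CPM in controls, and the groups overlapped. The F3 median of 0.13 was -0.31 without chlordecone 2 and -0.26 without control 3, and the F1 median of 1.79 was 0.90 without chlordecone 3. Without F1 control 1 it was 4.17, but over 4 genes in place of 2, since Cd79a and Cd79b, at 0 counts in the remaining control, were then tested too.

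Ms4a1, the B cell surface protein CD20, had 1.39, 1.80 and 3.50 CPM in the chlordecone libraries against 0.524 and 0.609 CPM in the controls in F1, or 33 to 76 counts against 10 and 13. Every chlordecone library was above both controls, and so Ms4a1 was among the 9 markers whose F1 groups did not overlap with chlordecone higher (16.2% of all genes did the same). Jchain, which links secreted immunoglobulin into polymers, had 6.81, 5.94 and 34.7 CPM in the chlordecone libraries against 6.03 and 4.26 CPM in the controls, with only chlordecone 3 standing apart. Cd79a and Cd79b, the signalling chains of the B cell receptor, were too low to test in F1. Cd79a had 12, 0 and 22 counts after chlordecone and 0 in both controls, which puts the chlordecone mean at least 3.33-fold higher than the 3 counts a zero allows in each control. Cd79b had 13, 1 and 55 counts after chlordecone and 8 and 0 in controls, and its groups overlapped. For all 4 genes analysed in F1 the highest value was in chlordecone 3.

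In F3 the order of libraries differed from gene to gene. Cd79a had 0.00898, 0.616 and 0.283 CPM in the chlordecone libraries against 0.159, 0.311 and 0.0830 CPM in the controls, and Cd79b had 0.0988, 0.523 and 0.104 CPM after chlordecone, with 0.222, 0.382 and 0.0664 CPM in the controls. Both were highest in chlordecone 2, the library that was lowest for most T cell and myeloid genes. Ms4a1 had 0.386, 0.581 and 0.292 CPM in the chlordecone libraries against 0.169, 0.608 and 0.0747 CPM in the controls, and chlordecone 2 was again the highest of its group. Ighm, the constant region of immunoglobulin M, had 2.42, 5.32 and 5.57 CPM in the chlordecone libraries against 5.46, 5.18 and 3.89 CPM in the controls, with chlordecone 1 the lowest of the 6 libraries. Jchain had 0.242, 0.685 and 0.679 CPM after chlordecone, with 0.582, 2.29 and 0.598 CPM in the controls, and control 2 alone was high. Its difference between generations was -2.65 on the log2 scale (SE 1.09, edgeR quasi-likelihood test, Benjamini-Hochberg adjusted p = 0.237).

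The wider B and plasma list gave 0 calls within a generation in edgeR (DESeq2 called Bank1, lower in F1), with 1 of 6 tested genes above 0 in F1 (median -0.43) and 3 of 9 in F3 (median -0.21). Its most abundant F1 gene, Bank1, an adaptor of B cell receptor signalling, had 3.05, 4.74 and 3.64 CPM in the chlordecone libraries against 25.5 and 18.0 CPM in the controls in F1. In F3 Bank1 had 4.10, 1.85 and 2.73 CPM in the chlordecone libraries against 2.08, 1.92 and 1.65 CPM in the controls. The F1 groups lay far apart, chlordecone lower, with a log2 fold change of -2.51 (SE 0.35, edgeR quasi-likelihood test, Benjamini-Hochberg adjusted p = 0.0728) that did not pass the threshold, and the F3 groups overlapped. Bank1 was thus lower in the F1 chlordecone libraries in which Ms4a1 was higher. In the F1 controls, Bank1 was far above the B and plasma markers. There Ms4a1 had 0.524 and 0.609 CPM, Cd79b 0.419 and 0 CPM, Cd79a 0 CPM in both, and Jchain 6.03 and 4.26 CPM. Which cells the Bank1 counts came from was not tested. The difference between generations was 3.19 on the log2 scale (SE 0.51, edgeR quasi-likelihood test, Benjamini-Hochberg adjusted p = 0.0162), which passed, the only call among 78 wider leukocyte genes tested. The adjusted p was 0.0685 without F1 control 1 and 0.0519 without F3 chlordecone 1. In F3, Igkc, the kappa light chain, had 1.11, 2.96 and 1.97 CPM in the chlordecone libraries against 2.68, 5.39 and 2.21 CPM in the controls, and Igha, the constant region of immunoglobulin A, had 0.557, 1.08 and 1.01 CPM after chlordecone, with 0.465, 5.05 and 0.457 CPM in the controls, both highest in control 2, as Jchain was.

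**Figure D4:**
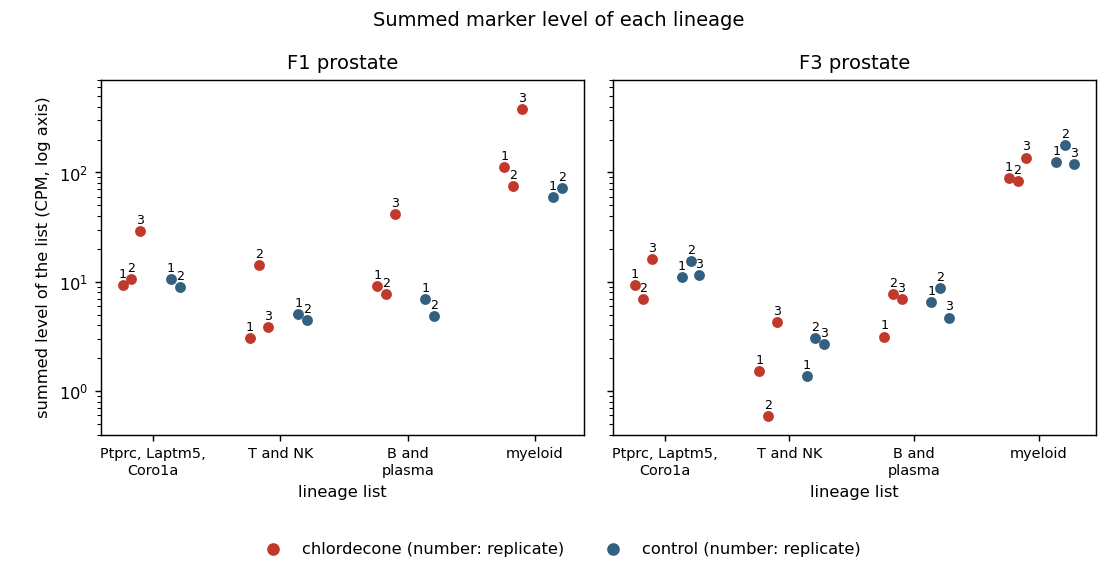
Points are the summed CPM (y axis, log scale) of the markers of each lineage (x axis) in each library, red for chlordecone and blue for control, with the replicate number above; the pan-leukocyte sum leaves out Cd52 and Lcp1. F1 chlordecone 3 is highest for the Ptprc group, B and plasma and myeloid sums (383.9 CPM) and F1 chlordecone 2 for T and NK, and in F3 the groups overlap in each of the lineages plotted; the neutrophil pair is left out.

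Among the myeloid genes, C1qa, C1qc, Itgam, Tyrobp, Cx3cr1, Mpeg1 and Cybb lay higher in every F1 chlordecone library than in either control. Of all genes, 16.2% did so. With library totals alone in place of TMM, the F1 groups of Cx3cr1 and Cybb overlapped. Cd163 lay lower in every F1 chlordecone library, as did 15.1% of all genes. In F3 only Itgam and Cd163 lay higher without overlap (8.34% of all genes), and Aif1 lower (8.25%). The 20 genes summed to 112, 75.6 and 384 CPM in F1 chlordecone libraries and 59.6 and 72.4 CPM in F1 controls. In F3 they summed to 88.5, 82.8 and 137 CPM after chlordecone and 124, 180 and 119 CPM in controls. F1 chlordecone 3 was the highest library for 16 of the 20, F3 chlordecone 2 the lowest for 16 and F3 control 2 the highest for 11. The F1 median log2 fold change of 1.23 was 0.55 without chlordecone 3 (over 18 genes in place of 20), and the F3 median of -0.56 lay between -0.86 and -0.28 as each library was left out. F3 control 2 was also the highest library for all 7 fat markers and for 6 of 7 smooth muscle markers, and the part of those tissues in the myeloid values was not tested.

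The C1q chains, made by tissue macrophages, join into the complement protein that recognises immune complexes and dying cells. In F1, C1qa had 9.86, 8.62 and 20.7 CPM in the chlordecone libraries against 5.13 and 3.89 CPM in the controls, and C1qc had 2.34, 5.29 and 5.48 CPM after chlordecone, with 0.996 and 0.469 CPM in the controls. Every chlordecone library was above both controls for C1qa and for C1qc. C1qb had 4.04, 2.56 and 9.39 CPM in the chlordecone libraries against 3.14 and 6.89 CPM in the controls, and its groups overlapped, with control 2 above chlordecone 1 and 2. The chains therefore did not keep a steady proportion in F1: C1qb counts were 1.73, 0.485 and 1.71 times those of C1qc after chlordecone and 3.16 and 14.7 times in controls. C1qa gave a log2 fold change of 1.53 (SE 0.49, edgeR quasi-likelihood test, Benjamini-Hochberg adjusted p = 0.304) and C1qc a log2 fold change of 2.57 (SE 0.77, edgeR quasi-likelihood test, Benjamini-Hochberg adjusted p = 0.280), neither past the threshold. In control 2 the 14.7 rested on 147 counts of C1qb and 10 of C1qc.

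In F3 the chains shared an order of libraries more closely. C1qa had 7.25, 6.05 and 12.9 CPM in the chlordecone libraries against 12.5, 17.5 and 13.1 CPM in the controls, C1qb had 5.56, 5.03 and 8.72 CPM after chlordecone, with 10.3, 15.7 and 6.92 CPM in the controls, and C1qc had 5.70, 4.53 and 8.35 CPM in the chlordecone libraries against 8.24, 11.9 and 7.85 CPM in the controls. Chlordecone 1 and 2 were below all controls for each chain, while chlordecone 3 lay among the controls, so the groups overlapped. C1qb counts were 0.975, 1.11 and 1.04 times those of C1qc after chlordecone and 1.25, 1.32 and 0.882 times in controls, a steadier proportion than in F1. C1qa gave a log2 fold change of -0.71 (SE 0.29, edgeR quasi-likelihood test, Benjamini-Hochberg adjusted p = 0.458) and C1qb a log2 fold change of -0.77 (SE 0.33, edgeR quasi-likelihood test, Benjamini-Hochberg adjusted p = 0.466). The 3 genes lie side by side on chromosome 4 (GRCm38: C1qb from 136880129 to 136886187, C1qc from 136889804 to 136893065 and C1qa from 136895917 to 136898803, all on the minus strand). The windows of C1qb (chr4:136886151-136886450) and C1qc (chr4:136892865-136893164) in GRCm38.p6, 250 bases before the RefSeq start to 50 after it and written along the minus strand, are shown because C1qc passed the test between generations and C1qb did not pass. Capitals mark the half-site AGAACA or TGTTCT, as above, and GAGGAAG or CTTCCTC, a core of the sites of PU.1, the transcription factor of myeloid cells; both were searched on both strands. C1qc holds 1 PU.1 core and 2 half-sites and C1qb 0 and 1. Of all promoters 13.6% hold the PU.1 core, as do 4 of the 15 myeloid promoters in the table, and these letters are a description of the windows, not binding sites.
C1qb: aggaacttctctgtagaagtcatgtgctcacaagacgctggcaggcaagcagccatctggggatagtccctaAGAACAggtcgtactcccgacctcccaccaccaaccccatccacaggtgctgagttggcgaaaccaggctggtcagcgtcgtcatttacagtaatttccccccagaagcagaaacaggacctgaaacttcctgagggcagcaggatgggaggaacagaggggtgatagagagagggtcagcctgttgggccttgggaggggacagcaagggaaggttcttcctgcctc
C1qc: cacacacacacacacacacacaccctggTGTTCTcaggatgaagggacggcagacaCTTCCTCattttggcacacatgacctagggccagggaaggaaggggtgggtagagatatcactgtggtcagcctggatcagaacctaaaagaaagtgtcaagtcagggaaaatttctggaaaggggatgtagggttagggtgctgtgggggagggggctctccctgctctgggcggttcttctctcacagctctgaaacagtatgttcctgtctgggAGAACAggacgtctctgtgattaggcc

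The lysozymes Lyz2 and Lyz1, which cut bacterial cell walls, are neighbours on chromosome 10; Lyz2 marks macrophages and neutrophils, and Lyz1 is best known from Paneth cells of the gut. Their main transcripts are identical at 92.0% of 1317 aligned positions, with a shared run of 118 bases, so reads may be split between them and each value is uncertain. Their promoter windows (GRCm38.p6, minus strand, Lyz2 chr10:117282223-117282522 and Lyz1 chr10:117292819-117293118, from RefSeq) are shown with the longest run they share, 86 bases, in capitals.
Lyz2: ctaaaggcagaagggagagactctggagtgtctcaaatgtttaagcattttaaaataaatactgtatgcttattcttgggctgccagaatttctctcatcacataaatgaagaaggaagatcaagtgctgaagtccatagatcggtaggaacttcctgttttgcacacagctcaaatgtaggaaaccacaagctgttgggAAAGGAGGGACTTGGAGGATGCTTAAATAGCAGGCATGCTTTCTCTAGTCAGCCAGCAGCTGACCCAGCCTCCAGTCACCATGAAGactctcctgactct
Lyz1: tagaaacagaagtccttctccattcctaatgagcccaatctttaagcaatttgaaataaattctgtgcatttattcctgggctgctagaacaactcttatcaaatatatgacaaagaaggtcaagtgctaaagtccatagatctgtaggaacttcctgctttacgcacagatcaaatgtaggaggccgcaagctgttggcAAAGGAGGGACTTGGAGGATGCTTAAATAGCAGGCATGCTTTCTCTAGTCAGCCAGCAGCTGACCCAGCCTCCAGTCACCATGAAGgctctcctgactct

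In F1, Lyz2 had 42.4, 14.6 and 246 CPM in the chlordecone libraries against 15.51 and 12.5 CPM in the controls, and it followed Cd52 as the most abundant marker per kilobase. Chlordecone 3 stood far above all others, chlordecone 1 above both controls and chlordecone 2 between the controls. The log2 fold change of 2.85 (SE 1.06, edgeR quasi-likelihood test, Benjamini-Hochberg adjusted p = 0.366) was 1.03 without chlordecone 3. Lyz1 had 0.238, 0.436 and 5.66 CPM in the chlordecone libraries against 0.996 and 0.188 CPM in the controls, or 123 counts in chlordecone 3 and 4 to 19 in the others. In F3, Lyz2 had 16.8, 22.7 and 31.4 CPM in the chlordecone libraries against 21.8, 59.2 and 30.0 CPM in the controls, with control 2 the highest, and Lyz1 had 1.03, 0.883 and 1.32 CPM after chlordecone, with 1.31, 1.70 and 2.15 CPM in the controls. Chlordecone 1 and 2 were below all 3 controls for Lyz1 and chlordecone 3 was just above control 1, with a log2 fold change of -0.67 (SE 0.29, edgeR quasi-likelihood test, Benjamini-Hochberg adjusted p = 0.468).

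Itgam, the CD11b chain of the complement receptor of monocytes, macrophages and neutrophils, was the marker that lay higher after chlordecone in both generations without overlap. In F1 it had 3.96, 2.18 and 10.8 CPM in the chlordecone libraries against 0.419 and 0.890 CPM in the controls, or a mean of 5.64 ± 4.53 CPM in chlordecone prostates (SD, n = 3) and 0.655 ± 0.333 CPM in control prostates (SD, n = 2). In F3 it had 2.96, 2.80 and 3.44 CPM in the chlordecone libraries against 1.69, 2.52 and 2.09 CPM in the controls, or a mean of 3.07 ± 0.334 CPM in chlordecone prostates (SD, n = 3) and 2.101 ± 0.413 CPM in control prostates (SD, n = 3). The F1 log2 fold change of 3.09 (SE 0.90, edgeR quasi-likelihood test, Benjamini-Hochberg adjusted p = 0.264) had the lowest adjusted p of any marker in F1, and the F3 log2 fold change of 0.55 (SE 0.23, edgeR quasi-likelihood test, Benjamini-Hochberg adjusted p = 0.465) did not pass either. With 8 and 19 counts in the controls, Itgam passed the filter of the reported F1 fit only through its chlordecone libraries. In F3 the markers without overlap and higher after chlordecone were Itgam and Cd163 (8.34% of all genes), and Aif1 was lower without overlap (8.25% of all genes). Without F1 chlordecone 2 the F1 value was 3.46 and was called, as were Cd52, C1qa, Lcp1, Lyz2, Mpeg1 and, against controls at 0 counts, Fcer1g, in a fit that called 15.0% of all genes. Set against Mrc1, Itgam counts were 0.322, 0.191 and 0.914 times as many in F1 chlordecone libraries and 0.0491 and 0.0674 times in F1 controls, and 0.924, 1.07 and 0.863 times in F3 chlordecone libraries and 0.571, 0.546 and 0.653 times in F3 controls. An exon of Itgam overlaps the gene model Gm49368 on the same strand.

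Adaptor genes of the myeloid receptors were also highest in F1 chlordecone 3. Tyrobp, the DAP12 adaptor of myeloid and NK receptors, had 2.26, 2.07 and 4.37 CPM in the chlordecone libraries against 1.10 and 1.31 CPM in the controls in F1, all chlordecone libraries above both controls. Fcer1g, the signalling chain of Fc receptors, had 45, 0 and 55 counts after chlordecone and 0 in both controls, at least 9.66-fold higher on average than the 3 counts a zero allows in each control. The zero in chlordecone 2 means that the groups still overlapped. In F3, Tyrobp had 2.55, 2.14 and 4.79 CPM in the chlordecone libraries against 4.23, 5.96 and 4.65 CPM in the controls, and Fcer1g had 1.45, 0.883 and 2.15 CPM after chlordecone, with 2.29, 3.00 and 1.59 CPM in the controls. Both were lowest in chlordecone 2, and chlordecone 3 lay among the controls.

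The lysosomal and killing proteins of macrophages were highest in chlordecone 3 in F1 too. Mpeg1, a pore-forming protein of phagocytes, had 7.48, 2.56 and 13.3 CPM in the chlordecone libraries against 1.62 and 2.11 CPM in the controls in F1. The groups did not overlap, with a log2 fold change of 2.06 (SE 0.73, edgeR quasi-likelihood test, Benjamini-Hochberg adjusted p = 0.343). Ctss, the protease cathepsin S, had 8.47, 2.45 and 13.3 CPM in the chlordecone libraries against 1.73 and 4.97 CPM in the controls, and Cybb, the catalytic chain of the phagocyte oxidase, had 3.01, 3.65 and 9.25 CPM after chlordecone, with 2.78 and 2.95 CPM in the controls. Ctss overlapped through chlordecone 2, whereas all Cybb values after chlordecone were above both controls. By library totals alone, Cybb in chlordecone 1 (2.99 CPM) lay below both controls (3.08 and 3.36 CPM). Cd68, a lysosomal glycoprotein, had 0.633, 1.91 and 2.07 CPM in the chlordecone libraries against 0 and 1.92 CPM in the controls, and its controls spanned from 0 to 41 counts. In F3, Mpeg1 had 5.11, 3.68 and 7.57 CPM in the chlordecone libraries against 7.89, 9.04 and 7.30 CPM in the controls, Ctss had 5.80, 4.78 and 11.2 CPM after chlordecone, with 13.0, 9.21 and 8.24 CPM in the controls, and Cybb had 3.50, 2.52 and 4.70 CPM in the chlordecone libraries against 3.70, 2.80 and 3.17 CPM in the controls. Chlordecone 1 and 2 were below all controls for Mpeg1 and Ctss but not for Cybb, whose chlordecone 1 lay within and chlordecone 3 above the control range. Cd68 had 1.52, 1.08 and 1.58 CPM in the chlordecone libraries against 2.63, 2.39 and 1.25 CPM in the controls in F3, lowest in chlordecone 2.

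Receptors of monocytes and resident macrophages did not share a direction. Cx3cr1, the fractalkine receptor, had 1.43, 4.36 and 4.14 CPM in the chlordecone libraries against 0.210 and 1.31 CPM in the controls in F1, all chlordecone libraries above both controls. The closest were chlordecone 1, at 36 counts, and control 2, at 28 counts. By library totals alone, chlordecone 1 (1.418 CPM) lay below control 2 (1.494 CPM). Ccr2, the receptor that brings monocytes out of the marrow, had 1.74, 1.69 and 4.05 CPM in the chlordecone libraries against 2.31 and 3.28 CPM in the controls, and its groups overlapped. Csf1r, the macrophage growth factor receptor, had 0.990, 0.763 and 3.22 CPM after chlordecone, with 0.786 and 1.73 CPM in the controls, with control 2 above chlordecone 1 and 2. In F3, Cx3cr1 had 1.92, 1.32 and 2.54 CPM in the chlordecone libraries against 2.59, 1.85 and 1.66 CPM in the controls, Ccr2 had 0.727, 0.627 and 1.88 CPM after chlordecone, with 1.20, 1.06 and 1.23 CPM in the controls, and Csf1r had 6.67, 5.15 and 9.65 CPM in the chlordecone libraries against 9.30, 10.2 and 6.002 CPM in the controls. All 3 overlapped and were lowest in chlordecone 2, and Ccr2 was highest in chlordecone 3. Exons of Csf1r overlap Hmgxb3, and those of Cx3cr1 overlap Gm33858, on the opposite strand.

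Mrc1, Cd14 and Cd163, genes of resident macrophages and monocytes, lay among, around or below the controls in F1. Mrc1 encodes the mannose receptor CD206 and had 12.3, 11.4 and 11.8 CPM in the chlordecone libraries against 8.54 and 13.2 CPM in the controls in F1, with the chlordecone libraries inside the range of the controls. Cd14, the co-receptor for endotoxin, had 6.06, 5.83 and 12.4 CPM in the chlordecone libraries against 9.96 and 9.42 CPM in the controls, chlordecone 1 and 2 below and chlordecone 3 above the controls. Cd163, the haemoglobin scavenger receptor, had 15, 15 and 18 counts after chlordecone and 16 and 32 counts in controls. Scaled by library size, the chlordecone libraries lay at 0.594 to 0.829 CPM and the lower control at 0.838 CPM, so Cd163 was the tested marker whose F1 chlordecone libraries all lay below the controls (15.1% of all genes did so). In F3, Mrc1 had 3.21, 2.61 and 3.99 CPM in the chlordecone libraries against 2.96, 4.61 and 3.20 CPM in the controls, and Cd14 had 13.5, 13.7 and 16.6 CPM after chlordecone, with 14.8, 17.5 and 15.0 CPM in the controls, and both overlapped. Cd163 in F3 had 2.173, 1.65 and 2.12 CPM in the chlordecone libraries against 1.43, 1.51 and 1.32 CPM in the controls, all chlordecone libraries above all controls.

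Aif1, the calcium-binding protein IBA1 of macrophages, was the marker that lay lower after chlordecone in F3 without overlap among those tested. It had 0.512, 0.349 and 0.896 CPM in the chlordecone libraries against 1.32, 0.962 and 1.51 CPM in the controls, or a mean of 0.586 ± 0.281 CPM in chlordecone prostates (SD, n = 3) and 1.26 ± 0.279 CPM in control prostates (SD, n = 3). The log2 fold change of -1.11 (SE 0.39, edgeR quasi-likelihood test, Benjamini-Hochberg adjusted p = 0.435) did not pass the threshold, and it lay between -1.56 and -0.85 as each library was left out. In F1 it had 1.78, 3.27 and 2.21 CPM in the chlordecone libraries against 3.35 and 2.81 CPM in the controls, and the groups overlapped. Cd83, a marker of activated dendritic cells and B cells, had 0.990, 1.09 and 2.02 CPM in the chlordecone libraries against 0.157 and 1.03 CPM in the controls in F1 and 0.646, 0.302 and 0.981 CPM after chlordecone, with 0.677, 1.44 and 0.755 CPM in the controls in F3. Its groups overlapped in both generations, with chlordecone 2 the lowest in F3.

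The wider macrophage and dendritic list gave 0 calls in either tool within a generation, with 7 of 18 tested genes above 0 in F1 (median -0.18) and 6 of 20 in F3 (median -0.35). The F1 median of this list was thus below 0 where that of the 20 myeloid markers was above. Mertk, a receptor for dying cells that epithelia also express, was its most abundant gene and had 38.8, 58.7 and 48.9 CPM in the chlordecone libraries against 97.6 and 84.2 CPM in the controls in F1, lower after chlordecone without overlap. Adgre1, the macrophage protein F4/80, had 4.24, 3.11 and 13.1 CPM in the chlordecone libraries against 5.76 and 4.87 CPM in the controls, with only chlordecone 3 above the controls. Trem2, a lipid receptor of macrophages, had 27.3, 0.763 and 8.61 CPM in the chlordecone libraries against 0 and 0.328 CPM in the controls in F1, without overlap and highest in chlordecone 1. In F3 Trem2 had 0.251, 0.198 and 0.490 CPM in the chlordecone libraries against 0.518, 1.47 and 0.523 CPM in the controls, again without overlap but with chlordecone lower. Irf8, a transcription factor of monocytes and dendritic cells, had 26.0, 20.9 and 27.7 CPM in the chlordecone libraries against 33.7, 23.9 and 23.6 CPM in the controls in F3, and its groups overlapped.

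Neutrophil markers were near the limit of detection. S100a8 and S100a9, which form calprotectin, had 30, 0 and 36 counts and 5, 0 and 3 counts in F1 chlordecone libraries, against 17 and 0 counts and 0 and 19 counts in F1 controls. Among F1 libraries, 0 counts allow up to 0.164 CPM in chlordecone 2, against 0.157 and 0.141 CPM in controls 1 and 2 (3 counts each). In F3, S100a8 had 1, 3 and 2 counts after chlordecone against 20, 4 and 61 counts in controls, and S100a9 had 7, 7 and 4 counts against 36, 5 and 96 counts. Controls 1 and 3 were high for both genes, while control 2 lay just above the chlordecone libraries for S100a8 and among them for S100a9. Neither had enough counts to test within F3, so this difference carries no p-value. The wider neutrophil list gave 0 calls in edgeR among 3 genes tested in F1 and 4 in F3, and DESeq2 called Ltf and Mmp8 in F1. Within it Ltf, lactotransferrin, which the male tract's epithelia also secrete, had 5.31, 0.763 and 10.4 CPM in the chlordecone libraries against 0.262 and 0 CPM in the controls in F1, and Mmp8, the neutrophil collagenase, had 0.158, 0.491 and 0.230 CPM in the chlordecone libraries against 3.04 and 3.19 CPM in the controls. Neither overlapped between the F1 groups, Ltf being higher and Mmp8 lower after chlordecone. Each was near 0 in its lower group and entered the test through its higher group alone.

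Per kilobase of exon, Cd52 and then Lyz2 had the highest mean CPM of the markers in both groups of both generations. In F1 they were followed by C1qa, Jchain and Ctss after chlordecone and by Cd14, C1qb and C1qa in controls, and in F3 by Lcp1, Cd14 and C1qa after chlordecone and by Lcp1, C1qa and C1qb in controls. Lyz2 averaged 76.9 CPM per kilobase after chlordecone and 10.6 in controls in F1. Ranked by the mean over all libraries, T and B cell receptor genes were mostly low, with Cd8a at 35 of 35 in F1 and Cd4 at 38 of 38 in F3, although Cd3d, with its high value in chlordecone 2, was at 9 in F1. Ptprc, although every leukocyte carries it, had 0.410 CPM per kilobase after chlordecone and 0.243 in controls in F1. The length used is that of all annotated exons of a gene merged, 18313 bases for Ptprc, so these ranks depend in part on the annotation.

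**Figure D5:**
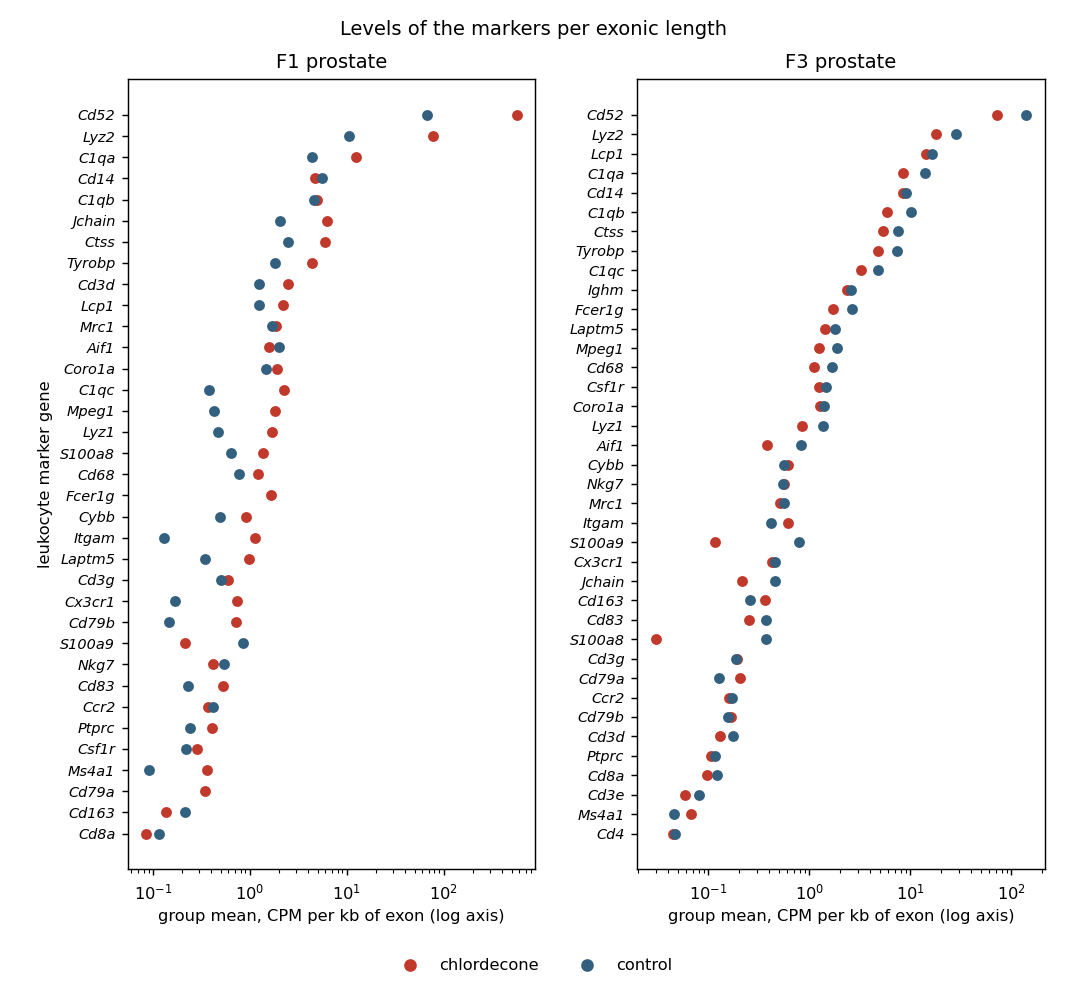
Points are group means in CPM per kilobase of exon (x axis, log scale) for each marker (y axis, ordered by the mean over all libraries of that generation), red for chlordecone and blue for control. Cd52 leads in both generations; Fcer1g and Cd79a have no control point in F1 because both controls were at 0.

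Mast cell and chemokine genes gave 0 calls in edgeR. In the mast cell and eosinophil list, 3 of 6 tested genes were above 0 in F1 (median 0.53) and 3 of 8 in F3 (median -0.095). Kit, the stem cell factor receptor of mast cells, had 7.52, 7.91 and 7.59 CPM in the chlordecone libraries against 1.94 and 1.83 CPM in the controls in F1, without overlap, and the mast cell protease Mcpt4 had 0.435, 1.04 and 1.89 CPM after chlordecone, with 0.367 and 0 CPM in the controls, also without overlap. Of all genes, 16.2% were higher without overlap in F1. Hdc and Cma1, also among the 4 most abundant of the list in F1, had F1 log2 fold changes of -0.11 and 1.18, and their groups overlapped. In F3 Mcpt4 had 2.82, 3.38 and 2.21 CPM in the chlordecone libraries against 4.26, 4.64 and 2.33 CPM in the controls, and its groups overlapped. Cxcl12, the chemokine that holds leukocytes in tissue, had 79.9, 56.0 and 69.3 CPM in the chlordecone libraries against 37.7 and 36.4 CPM in the controls in F1, again without overlap, and 19.4, 20.6 and 17.7 CPM after chlordecone, with 9.75, 26.4 and 16.9 CPM in the controls in F3. In F1, 8 of 11 tested chemokine genes were above 0 (median 0.49), and in F3 4 of 13 (median -0.12). The F3 chlordecone libraries overlapped the controls for Cxcl12, with control 1 the lowest and control 2 the highest library.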

How the data were processed

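Poly-A RNA of whole prostate was sequenced from TruSeq stranded libraries, and the authors deposited raw read counts per gene, 1 table for F1 and 1 for F3. The submitters' processing notes name HTSeq 0.6.1, DESeq2 1.6.3, the aligners TopHat2 2.0.14 with Bowtie2 2.1.0, the demultiplexer bcl2fastq 2.17.1.14 and the build mm10. Neither an annotation release nor the counting's strand setting is stated in the sources used here. The column letter C was taken to mean control and K to mean kepone, that is chlordecone. The rows of the F1 table had at least 20 counts in total, and those of F3 at least 1.

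Markers and lists were chosen with earlier results of these data known. Counts were tested with edgeR 4.0.16 (R 4.3.3): filterByExpr (minimum count 10), TMM, quasi-likelihood test (glmQLFit, glmQLFTest), two-sided, within each generation and for the difference between generations, with Benjamini-Hochberg adjustment over all genes tested and a threshold of 0.05. The SE is the log2 fold change over the square root of F. DESeq2 1.42.0, other scalings and filters, a replicate block, and leaving out libraries were alternatives. The script was tested on simulated data. Values in every library are given for markers with a mean of at least 10 counts. Of the other lists, genes were nameable when past the threshold or among the 4 highest by mean CPM; Trem2 in F3 and the choice of fold changes printed were settled after seeing the data. Exon overlaps and lengths came from GENCODE M21, and promoters (28 of 38 markers matched) from RefSeq GRCm38.p6. Each CPM rests on few counts, a median of 45 per marker and library in F1 and 186 in F3, and limits from 0 counts cover counting error only.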

Additional observations from a re-analysis of the deposited data

Results flagged for a closer look

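C1qc differed between generations by a log2 value of -3.11 (F3 difference minus F1 difference), and the test of that difference passed with an adjusted p of 0.0474 in edgeR's quasi-likelihood test. Its chlordecone libraries were all above the controls in F1 and overlapped the controls in F3.

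Cd163 lay lower in every chlordecone library than in any control in F1 and higher in every one in F3. The difference of 1.20 on the log2 scale did not pass the test between generations (edgeR adjusted p = 0.4003, and 0.163 to 0.663 over the alternatives).

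Lck had the same pattern, lower in F1 and higher in F3 without overlap, with a difference of 1.30 that did not pass (edgeR adjusted p = 0.177, and 0.0295 without F1 chlordecone 2). It did not share the low values of the CD3 chains in F3 chlordecone 2.

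Bank1 differed by 3.19 and passed the test (edgeR adjusted p = 0.0162). Its F1 levels were 3.05, 4.74 and 3.64 CPM after chlordecone against 25.5 and 18.0 CPM in controls, where Ms4a1 had 0.524 and 0.609 CPM.

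Trem2 lay higher in every chlordecone library in F1 and lower in every one in F3. The fitted difference of -7.46 depends on an F1 control at 0 counts and did not pass (edgeR adjusted p = 0.0606). DESeq2 gave an adjusted p of 6.379e-05, and edgeR gave 0.00248 without F1 chlordecone 2.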

How the results depend on the processing

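Depth limited the rarer markers, since 8 of them had an F1 library at 0 counts and the F1 controls numbered 2. Where values moved, the cause was not tested. Of 468 values for single genes over the alternatives, 423 kept their direction and side of the threshold, 27 passed it newly, 15 no longer passed and 3 turned direction. Those turned were Lcp1 in F1, at -0.45 without chlordecone 1 and 3 together, and Ptprc in F3, which ran from -0.84 to 0.23 as single libraries were left out.

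Markers called in F1 numbered 0 in the reported fit, 2 with DESeq2 and 4 with 1 fit of all libraries (C1qc, Cd52, Fcer1g and Itgam). They numbered 1 without chlordecone 1 and 3 together (Cd3d; with 1 chlordecone library left, only the 2 controls give a spread, which that library is assumed to share) and 0 to 7 as single libraries were left out. All F1 genes called numbered 5, against 42 with library totals alone, 21 with no filter, 719 with DESeq2, 930 in 1 fit of all libraries, 1226 without chlordecone 1 and 3 together and 0 to 2604 as single libraries were left out. All F3 genes called numbered 10, against 38 with no filter, 249 with DESeq2, 2 in 1 fit of all libraries and 7 to 41 as single libraries were left out, and markers called in F3 were 0 under each of these. Genes differing between generations numbered 122, against 192 at a mean of at least 1 CPM, 1151 with DESeq2, 370 without F1 chlordecone 1 and 3 together and 27 to 2320 as single libraries were left out. Markers differing numbered 1, against 0 with DESeq2 size factors and with library totals alone, 5 with DESeq2 and 0 to 8 as single libraries were left out.

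The sources used here do not say whether replicate numbers pair the samples. Deviations of same-numbered libraries from their group means correlated at 0.0483 and 0.0583 in F1 and at 0.131, 0.00179 and 0.00191 in F3. The deviations of F1 control 1 and control 2 mirror each other (0.0483 and -0.0483 with chlordecone 1), so the F1 values can hardly show or exclude pairing. With a replicate block, 322 F1 genes and 1 F1 marker (Cd52, log2 fold change 2.26) were called, 8 F3 genes and 0 F3 markers, and 49 genes and 0 markers differed between generations. Not every library correlated best with its own number.

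Medians without F1 chlordecone 1 and 3 together were 1.03 for T and NK, 0.085 for myeloid and -6.15 for the neutrophil pair, both at 0 counts in the chlordecone library left. As single libraries were left out, the F1 B and plasma median ran from 0.895 to 4.17 (over 2 to 4 genes), the F1 pan-leukocyte median from 0.326 to 1.16, the F1 neutrophil median from 0.106 to 2.24 (over 1 or 2 genes), the F3 median over all markers from -0.845 to -0.15 (over 36 or 38 genes), and the F3 pan-leukocyte median from -0.72 to -0.11.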

Other observations

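Ccl8, a monocyte-attracting chemokine, had 0.108, 0.139 and 0.170 CPM in F3 chlordecone libraries against 2.06, 1.09 and 0.324 CPM in F3 controls, without overlap, and was singled out after its values were seen. Upk1a, a urothelial plaque protein, passed the threshold in F3 with a log2 fold change of 2.47 (edgeR quasi-likelihood test, Benjamini-Hochberg adjusted p = 0.0102), the only gene of the other tissue lists to do so in the test within either generation.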
